A study of Mus musculus with 13 samples.

Results

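The genes described here are those of antigen presentation by the major histocompatibility complex (MHC): every gene whose symbol starts with H2-, the prefix of the mouse MHC, and B2m, Tap1, Tap2, Tapbp, Nlrc5, Psmb8, Psmb9, Psmb10, Cd74 and Ciita. The rule found 52 of the 22609 genes in each of the 2 tables, 42 by the prefix and 10 by name. Of these, 38 belong to class I, 12 to class II, and 2 (H2-Ke2 and H2-Ke6) lie in the same region of the chromosome but encode no MHC chain. The study sequenced RNA from visceral fat and from E0771 mammary tumours of C57BL/6 mice, 13 libraries in all. In KO hosts the gene for PD-L1 was targeted in fat, and WT hosts were the controls. The fat (4 KO and 3 WT libraries) was taken after high-fat feeding (HFD in the labels) in both groups. E0771, a transplantable mouse breast cancer line, was grown in KO hosts (3 tumours) and in WT hosts (3 tumours), and the labels name no change to the genes of the tumour cells. The labels give neither the promoter or Cre line behind the fat-specific deletion nor ages. They do not tie each library to a separate animal, so the spread behind every p-value may be technical.

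Class I molecules pair a heavy chain with beta-2-microglobulin, stand on nearly every nucleated cell and show peptides from inside the cell to CD8+ T cells and natural killer cells. The peptides are cut by the proteasome, whose catalytic subunits are exchanged for those of the immunoproteasome under interferon gamma, and the TAP transporter carries them into the endoplasmic reticulum for loading. Class II molecules stand mainly on macrophages, dendritic cells and B cells, where the invariant chain CD74 guards the peptide groove until cathepsins digest it and H2-DM exchanges its last fragment for peptides from engulfed material, which CD4+ T cells then read. In obese fat, class II is carried by macrophages and dendritic cells and has been found on fat cells too.

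Gene reads per library numbered 29362788 to 41534662 in fat and 22834259 to 34706555 in tumours. Tumour values below are normalised reads (counts rescaled by TMM library size), and fat values are the deposited counts divided by a size factor, so levels are compared within a tissue only. Cd274, which encodes PD-L1, had values of 521 to 564 in KO fat against 504 to 739 in WT fat, with a log2 fold change, KO minus WT, of -0.10 with SE 0.15 and adjusted p = 0.66 in limma. Whole-tissue RNA thus did not separate the groups labelled KO and WT at the targeted gene, and every direction rests on the labels. Counts over the whole gene and all cells can miss a deletion limited to part of the gene or to fat cells. In tumours Cd274 had 1568 to 2414 in KO hosts against 1391 to 1688 in WT hosts. Its log2 fold change there was 0.37 with SE 0.16 and adjusted p = 0.717 in edgeR. The 6 adipocyte marker genes were all present in fat. In tumours 2 of the 6 passed the filter on low values. Pparg had 303 to 319 in KO hosts against 240 to 259 in WT hosts. Slc2a4 had 15.3 to 32.0 in KO hosts against 8.87 to 43.0 in WT hosts. The other 4 had at most 6.51 normalised reads in any tumour. Among them Lep, the gene of leptin, had 0 in KO hosts against 0 to 0.985 in WT hosts. Of 4 epithelial genes Krt8 was high, with 8997 ± 428 in KO hosts against 9474 ± 951 in WT hosts (SD, n = 3 each). Krt18, Epcam and Cdh1 were low, with means of 43.4 to 131 in KO hosts against 57.8 to 145 in WT hosts.

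The MHC levels spanned a wide range. Per kilobase of exon (GENCODE M21), B2m had the highest level of all members in fat, with 87545 ± 16132 in KO and 108205 ± 27294 in WT fat (SD, n = 4 and 3), followed in WT fat by Cd74, H2-Aa, H2-K1, H2-D1, H2-Ab1 and H2-Eb1, whose WT means lay between 10872 and 37462. In WT fat B2m stood apart from Cd74, whereas each of the following genes overlapped its neighbour in range. Ranges ignore that the genes share libraries, and the order within each library was not tested. In tumours the leading genes were B2m, H2-D1, H2-K1, Cd74, H2-Aa, H2-Ab1 and H2-Eb1, in the order of their WT means per kilobase, 89935 for B2m and 9166 for H2-Eb1. In WT tumours H2-K1 overlapped Cd74 and H2-Aa overlapped H2-Ab1 in range, and the other neighbours in this order did not overlap. At the other end, 8 class I genes had no read in any fat library (H2-M1, H2-M10.4, H2-M10.5, H2-M10.6, H2-M11, H2-Q7, H2-Q9 and H2-T9). In tumours 8 were without a read too, with H2-M10.1 in place of H2-M10.4. H2-Ea-ps, the E alpha chain, which is not functional in the b haplotype of C57BL/6 mice, was at 0 in all 13 libraries. A count of 0 allows up to 3 reads per library, for counting error only. The class I genes resemble one another: in the GENCODE transcripts a median of 90.5% of their 50-base windows occurred in no other gene, against 99.7% for class II, and the lowest share was 46.5%, for H2-T22. In the tumour table, reads placed at several sites (59.1% to 63.8% of all entries) were kept apart from the gene counts, so genes with near copies such as H2-Q7, H2-T10 and H2-T22 may be counted too low.

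The class II genes were higher on average in KO fat, but only H2-DMb1 passed the test over all genes. The boxes read by the class II enhanceosome, which recruits CIITA, lie just before the start site. For that reason the promoters of H2-DMb1, which passed, and of H2-Aa and H2-Eb1, which did not, are shown. Each is the 250 bases before the RefSeq start site on GRCm38.p6 (H2-Aa chr17:34287824-34288073, minus strand; H2-Eb1 chr17:34305617-34305866, plus strand; H2-DMb1 chr17:34152941-34153190, plus strand), written 5′ to 3′ in the direction of the gene. Capitals mark matches on either strand to the Y box (CCAAT), the X2 core (TGACG) or the X1 box, whose letters are those in capitals ahead of the Y box in H2-Eb1 and H2-DMb1.
H2-Aa: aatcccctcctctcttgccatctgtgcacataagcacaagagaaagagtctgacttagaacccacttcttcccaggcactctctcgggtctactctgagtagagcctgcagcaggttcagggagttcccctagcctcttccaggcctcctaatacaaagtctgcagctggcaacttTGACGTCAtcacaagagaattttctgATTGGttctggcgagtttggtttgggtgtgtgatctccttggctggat
H2-Eb1: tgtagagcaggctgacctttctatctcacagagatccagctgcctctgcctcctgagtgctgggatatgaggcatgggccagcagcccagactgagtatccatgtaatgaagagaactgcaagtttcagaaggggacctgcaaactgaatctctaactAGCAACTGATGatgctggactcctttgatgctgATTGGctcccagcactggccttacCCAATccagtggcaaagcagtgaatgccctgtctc
H2-DMb1: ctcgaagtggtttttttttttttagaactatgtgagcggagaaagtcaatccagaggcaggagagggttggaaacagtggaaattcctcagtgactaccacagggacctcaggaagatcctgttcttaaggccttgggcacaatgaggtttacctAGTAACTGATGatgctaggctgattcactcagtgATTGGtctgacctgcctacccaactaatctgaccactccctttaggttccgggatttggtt
H2-Eb1 and H2-DMb1 hold an X1 match followed by a Y box on the reverse strand, and H2-Eb1 has a forward Y box too. H2-Aa holds overlapping X2 cores on both strands and a reverse Y box. RefSeq start sites were found for 8 of the 12 class II genes, giving 9 windows from 250 bases before to 50 after the start, since a gene can have more than 1 start site. The X1 letters occurred in 5 of these 9 windows (55.6%), against 3.09% of all 32851 promoter windows of the table. The Y box occurred in 8 of 9 (88.9%), against 37.4% of all windows. The X2 core occurred in 1 of 9, that of H2-Aa (11.1%), against 20.8% of all windows. These are matches of letters, not sites shown to be bound.

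H2-Aa (GRCm38 chromosome 17, 34282744 to 34287823, minus strand), the alpha chain of the class II molecule I-A, had normalised values of 63087, 38418, 39499 and 42704 in KO fat, against 36809.7, 32383 and 16476 in WT fat. All KO libraries lay above all WT libraries, as for 21.6% of all 14455 genes tested, with the highest KO value in replicate 1 and the lowest WT value in the column numbered 4. The log2 fold change was 0.74 with SE 0.31 and adjusted p = 0.1 in limma, which did not pass the threshold of 0.05, and 0.38 without the WT column numbered 4. H2-Ab1, the beta chain of the same molecule, had 32130.0, 21364, 25436 and 25249 in KO fat, against 22949, 19026 and 9204 in WT fat. Its groups overlapped, because KO replicate 2 lay under the WT column numbered 1, and its log2 fold change was 0.70 with SE 0.31 and adjusted p = 0.112 in limma. H2-Eb1, the beta chain of I-E, which finds no alpha partner in this strain, had 38803, 22501, 24444 and 25026 in KO fat, against 22969, 21171 and 10296 in WT fat. Its KO replicate 2 again lay under a WT value, and the log2 fold change was 0.66 with SE 0.31 and adjusted p = 0.135 in limma.

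Cd74, the invariant chain, had normalised values of 98837, 65269, 77612 and 77969.8 in KO fat, against 72702, 57764 and 28669.9 in WT fat, a log2 fold change of 0.68 with SE 0.33 and adjusted p = 0.149 in limma. Its KO replicate 2 was under the highest WT library, so the groups overlapped. H2-DMb1 (chromosome 17, 34153072 to 34160230, plus strand), the beta chain of the peptide editor H2-DM, had 4050.1, 2932, 3088 and 3395 in KO fat, against 2746, 1833 and 926 in WT fat. All KO values were above all WT values, again as for 21.6% of all genes, and H2-DMb1 rose 2.00-fold (95% interval 1.20 to 3.32), which is 1.00 with SE 0.32 and adjusted p = 0.0416 on the log2 scale in limma. That call was lost in edgeR on the recovered reads (adjusted p = 0.0613) and in 6 of 7 fits that left out a library, of which the fit without the WT column numbered 4 gave a log2 fold change of 0.57. H2-DMa, the alpha chain of H2-DM, had 2836, 2007, 1972 and 2120.3 in KO fat, against 2322, 1944 and 967 in WT fat, with groups that overlapped and a log2 fold change of 0.43 with SE 0.29 and adjusted p = 0.268 in limma. H2-DMb1 shares 22.7% of its 50-base windows with its neighbour H2-DMb2, which was low, with values of 20.5 to 79.9 in KO fat against 47.4 to 99.8 in WT fat.

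Ciita (chromosome 16, 10480059 to 10528418, plus strand), the co-activator that switches class II genes on, had normalised values of 1383, 1850.2, 2274 and 1987 in KO fat, against 2182, 1557 and 689.8 in WT fat. KO replicate 3 was the highest library, the other KO values lay inside the WT range, and the log2 fold change was 0.47 with SE 0.36 and adjusted p = 0.333 in limma. The estimate rested on the WT column numbered 4: without it the log2 fold change was 0.00042. H2-Oa and H2-Ob encode the chains of H2-DO, which holds H2-DM back in B cells. H2-Oa had values of 37.3 to 78.4 in KO fat against 29.9 to 68.5 in WT fat, with a log2 fold change of 0.05, and H2-Ob had 111 to 225 in KO fat against 114 to 256 in WT fat, with 0.16. H2-Eb2, which has no settled role, was at 27.0 to 55.2 in KO fat against 12.4 to 49.9 in WT fat with a log2 fold change of 0.79 with SE 0.50 and adjusted p = 0.25 in limma. Of the 11 class II genes that passed the filter on low values, 1 rose and 0 fell, where 16.8% of all 14455 genes tested rose and 17.4% fell. The share of class II genes that rose was thus not above that of all genes. Their median log2 fold change was 0.66, against 0.00 over all genes, and 10 of 11 were positive. Much of this rested on the WT column numbered 4: without it the log2 fold change was 0.29 for Cd74, 0.30 for H2-Ab1, 0.29 for H2-Eb1 and 0.056 for H2-DMa.

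**Figure D1:**
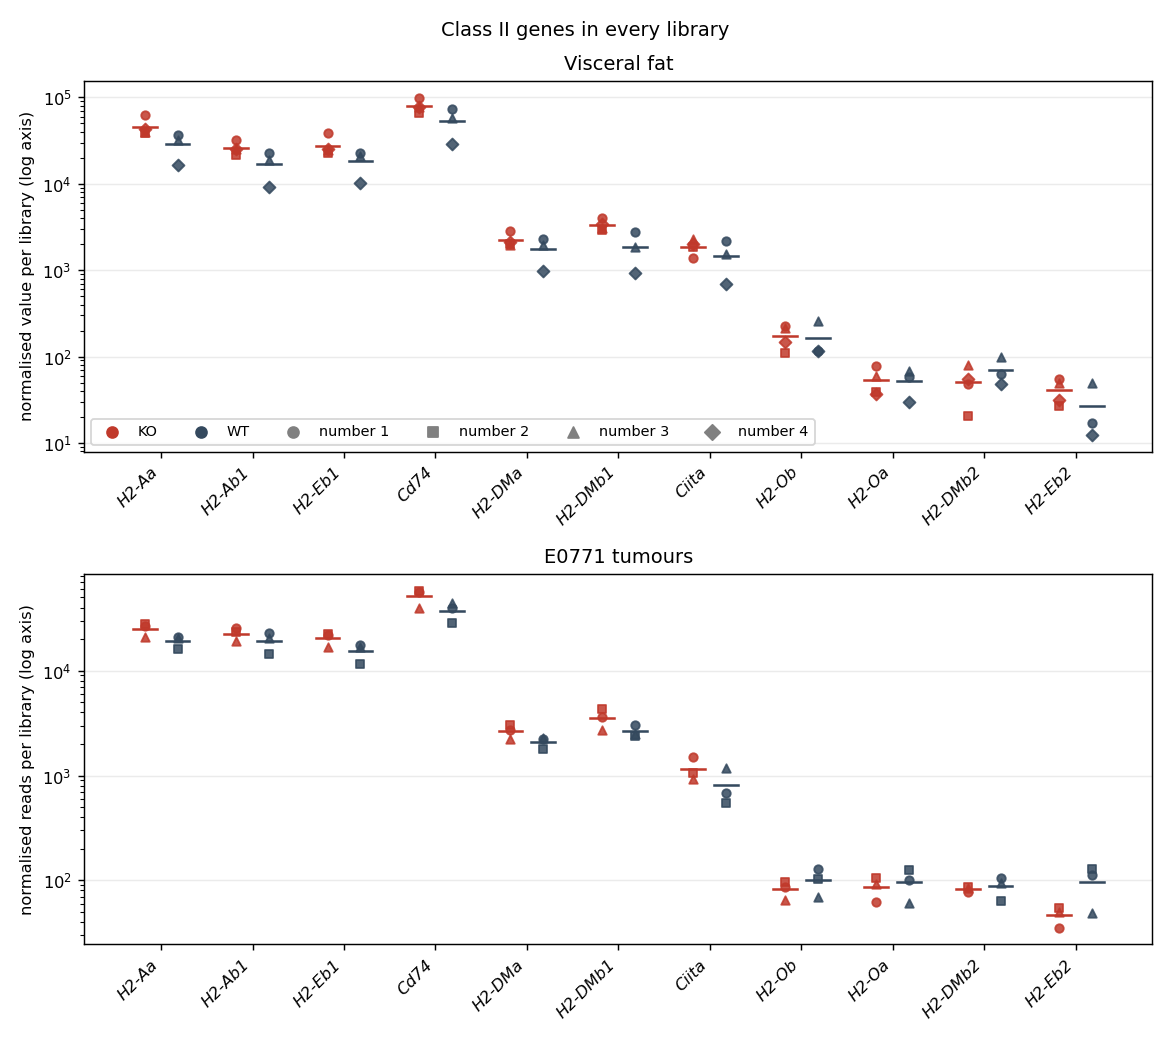
Class II genes in every library, as normalised values in fat (upper panel) and normalised reads in tumours (lower panel) on log axes. Points are libraries, with KO left of WT for each gene and the marker shape giving the number in the column name, and bars are group means. In fat the WT column numbered 4 is lowest in 9 of 11 class II genes and KO replicate 1 is highest in 8 of 11.

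The libraries did not contribute evenly. The WT column numbered 4 was the lowest of the 7 fat libraries for 9 of the 11 class II genes, and KO replicate 1 the highest for 8 of 11. The summed class II level was 154537 to 241532 in KO fat against 67432 to 162933 in WT fat, and the WT column numbered 4 gave the lowest of these sums, 67432. Macrophage markers moved with the groups: 9 of 10 rose, where 16.8% of all genes tested rose and 17.4% fell. None was at 0 in a library, and their summed level was 287016 to 394624 in KO fat against 52658 to 148326 in WT fat. Emr1, which encodes F4/80, had a log2 fold change of 2.66 with SE 0.41 and adjusted p = 0.00244 and Itgax, which encodes CD11c, of 3.13 with SE 0.35 and adjusted p = 0.00105 in limma. Of 9 dendritic cell markers 1 rose and 3 fell, beside the same 16.8% and 17.4% of all genes, with sums of 4103 to 7196 in KO fat against 3444 to 4558 in WT fat. Of 5 B cell markers none passed, with sums of 338 to 883 in KO fat against 282 to 925 in WT fat. Of 6 adipocyte markers, 6 fell, beside 17.4% of all genes, with sums of 125814 to 200411 in KO fat against 416748 to 501546 in WT fat. The part of these cells in the class II values was not tested, and in whole tissue more cells of a type and more RNA per cell cannot be told apart.

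Ratios within a library do not depend on the scaling between libraries. Relative to Emr1, the class II gene H2-Aa was lower in KO fat: the ratio of H2-Aa to Emr1 was 1.01 to 1.71 in KO fat against 3.46 to 6.46 in WT fat (log2 difference -1.92, exact permutation p = 0.0286, the smallest that 35 relabellings allow). Emr1 rose so far that 93.3% of all genes tested had a ratio to it that was lower in every KO library. The ratio of Ciita to Csf1r, the receptor on which macrophages depend, was 0.0423 to 0.0714 in KO fat against 0.0865 to 0.121 in WT fat, again with all KO values below all WT values, as for 77.9% of genes over Csf1r. The ratios of H2-Aa and H2-DMb1 to Csf1r were lower on average in KO fat, but their groups overlapped (exact permutation p = 0.0857 each). H2-Aa over Csf1r was 1.09 to 1.93 in KO fat against 1.90 to 2.51 in WT fat. H2-DMb1 over Csf1r was 0.0834 to 0.124 in KO fat against 0.116 to 0.142 in WT fat. The ratio of H2-Aa to the class I gene H2-K1 went the other way, with 1.18 to 1.45 in KO fat against 0.628 to 0.875 in WT fat (exact permutation p = 0.0286), and 14.9% of all genes stood above H2-K1 in the same manner. The ratio of Cd74 to B2m was 0.956 to 1.13 in KO fat against 0.435 to 0.686 in WT fat, a difference of 0.97 on the log2 scale shared in kind by 20.1% of all genes over B2m. The ratio of H2-DMb1 to H2-DMa was 1.43 to 1.601 in KO fat against 0.943 to 1.18 in WT fat, and 6.30% of genes had KO above WT over H2-DMa. Over the 17 ratios computed in each tissue, the 6 that reached the smallest p in fat had an adjusted p of 0.081, so none passed 0.05. In fat a ratio at that smallest p can pass only if many of the 17 reach it. In tumours the smallest p allowed was 0.1, so no ratio could pass. The few libraries thus largely set this outcome. Within class II, H2-Eb1 over H2-Aa was 0.586 to 0.619 in KO fat against 0.624 to 0.654 in WT fat, with all KO values below all WT values as for 42.6% of genes over H2-Aa (exact permutation p = 0.0571). H2-Ab1 over H2-Aa was 0.509 to 0.644 in KO fat against 0.559 to 0.623 in WT fat, and Cd74 over H2-Aa was 1.57 to 1.96 in KO fat against 1.74 to 1.98 in WT fat, and both overlapped.

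**Figure D2:**
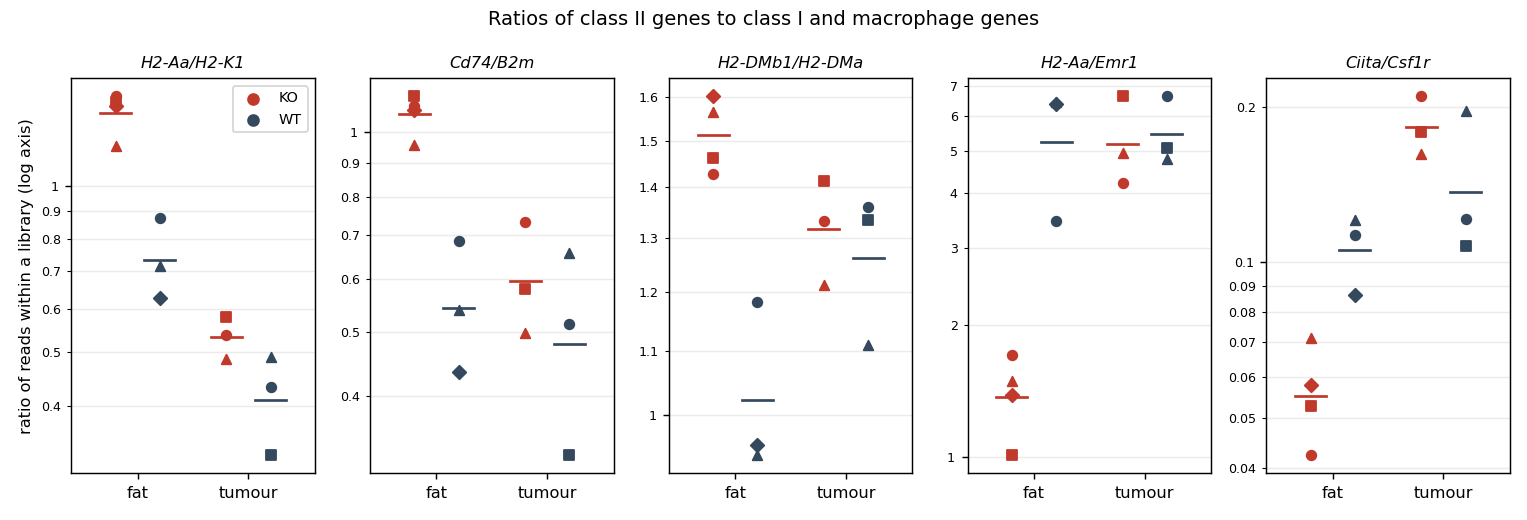
Ratios of class II genes to class I genes, to each other and to macrophage genes within each library, on log axes, for fat and tumours, with KO left of WT. Points are libraries and bars are geometric means. In fat the ratio of H2-Aa to H2-K1 is 1.18 to 1.45 in KO fat against 0.628 to 0.875 in WT fat, and the ratio of H2-Aa to Emr1 is 1.01 to 1.71 in KO fat against 3.46 to 6.46 in WT fat.

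The main class I chains overlapped between KO and WT fat, and none passed. The promoters of B2m, H2-K1 and Tap1 are shown for comparison with those of class II, again as the 250 bases before the RefSeq start site (B2m chr2:122147437-122147686, plus strand; H2-K1 chr17:34000348-34000597, minus strand; Tap1 chr17:34187306-34187555, plus strand). Capitals mark the same motifs and, in B2m, an interferon-stimulated response element (ISRE), the first stretch of capitals there.
B2m: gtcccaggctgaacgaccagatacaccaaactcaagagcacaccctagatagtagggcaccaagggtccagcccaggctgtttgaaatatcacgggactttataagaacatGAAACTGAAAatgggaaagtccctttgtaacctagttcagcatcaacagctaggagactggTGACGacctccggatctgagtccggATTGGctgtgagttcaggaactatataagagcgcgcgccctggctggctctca
H2-K1: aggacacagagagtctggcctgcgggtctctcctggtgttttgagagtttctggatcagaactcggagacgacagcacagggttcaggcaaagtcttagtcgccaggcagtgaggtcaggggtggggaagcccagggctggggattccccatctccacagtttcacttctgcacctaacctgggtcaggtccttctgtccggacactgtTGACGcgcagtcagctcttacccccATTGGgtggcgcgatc
Tap1: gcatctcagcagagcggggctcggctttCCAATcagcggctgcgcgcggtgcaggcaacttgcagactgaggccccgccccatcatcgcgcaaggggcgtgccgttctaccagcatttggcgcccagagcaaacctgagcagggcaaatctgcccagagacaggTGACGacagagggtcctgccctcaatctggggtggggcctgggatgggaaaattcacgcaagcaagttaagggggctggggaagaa
B2m holds the ISRE letters, an X2 core and a Y box in this order, and H2-K1 an X2 core and a reverse Y box. Tap1 holds a Y box far from its start site and an X2 core nearer to it. The Tap1 window also spans the start site of Psmb9, which is read in the opposite direction from a point 226 bases away, so the full windows of both genes overlap by 275 bases. Over 30 windows of 28 class I genes, the Y box letters occurred in 25 (83.3%, against 37.4% of all windows), the X2 core in 15 (50%, against 20.8%), the X1 box in 6 (20%, against 3.09%) and the ISRE letters in 3 (10%, against 3.44%). The letters of the gamma-activated sequence (TTCNNNGAA, the same on both strands) occurred in 3 class I windows (10%), 1 class II window (11.1%) and 8.30% of all windows.

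B2m (chromosome 2, 122147686 to 122153083, plus strand), the light chain shared by class I molecules, had normalised values of 90138, 57615, 81205 and 72196 in KO fat, against 106057, 107153 and 65959.8 in WT fat. H2-K1 (chromosome 17, 33996017 to 34000347, minus strand), a classical heavy chain, had 43541, 27137, 33538 and 30692 in KO fat, against 42052, 45221 and 26249 in WT fat. H2-D1, the other classical heavy chain, had 52856, 35642, 40266 and 38039.6 in KO fat, against 39826, 43150.2 and 31081 in WT fat. Groups overlapped for all 3, and their log2 fold changes were -0.29, -0.15 and 0.13 (SE 0.28, 0.25 and 0.21; adjusted p of limma 0.444, 0.678 and 0.662). The 95% interval of the fold was 0.606 to 1.34 for H2-K1 and 0.785 to 1.52 for H2-D1, so a change of moderate size in either direction was not detectable with these libraries. The ratio of H2-K1 to H2-D1 was 0.761 to 0.833 in KO fat against 0.845 to 1.06 in WT fat: every KO library lay below every WT library (exact permutation p = 0.0286), as for 22.3% of all genes over H2-D1.

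H2-T23 and H2-K2 rose. H2-T23 (chromosome 17, 36029773 to 36032855, minus strand) encodes Qa-1, which shows signal peptides of other class I chains to the inhibitory receptor NKG2A. It had normalised values of 4231, 2918, 2894 and 3141 in KO fat, against 2209, 2538 and 1823 in WT fat. Every KO library exceeded every WT library, as for 21.6% of all genes tested, and the log2 fold change was 0.58 with SE 0.17 and adjusted p = 0.0298 in limma, a rise of 1.5-fold (95% interval 1.14 to 1.97). The call was lost in 3 of 7 fits that left out a library (KO replicate 4, or the WT column numbered 1 or 4), with adjusted p up to 0.0921. H2-K2 (chromosome 17, 33974659 to 33978827, minus strand) is annotated by GENCODE as a transcribed pseudogene. It had 364, 362, 360.5 and 371 in KO fat, against 169, 186 and 237 in WT fat, with no overlap (21.6% of all genes), and the log2 fold change of 0.90 with SE 0.16 and adjusted p = 0.00377 in limma passed in all 7 fits that left out a library. Among its 50-base windows 90.6% occurred in no other gene, so some of its reads could come from related genes. H2-M3 (chromosome 17, 37270220 to 37274484, plus strand), which presents peptides that start with N-formylmethionine, had 1138, 779, 732 and 722 in KO fat, against 483, 679.9 and 582 in WT fat. Its groups did not overlap either (21.6% of all genes), and the log2 fold change of 0.52 with SE 0.20 and adjusted p = 0.0697 did not pass in limma.

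The genes that make and load class I peptides did not pass in either direction in fat. Tap1, a chain of the peptide transporter, had normalised values of 2224, 1457, 1522 and 1449 in KO fat, against 1477, 2694 and 1386 in WT fat. Tap2, its other chain, had 2916, 2434, 2496 and 2457 in KO fat, against 3157, 3911 and 2769 in WT fat. Tap2 had a log2 fold change of -0.34 with SE 0.14 and adjusted p = 0.0949, and Tap1 had -0.11 with SE 0.25 and adjusted p = 0.765 in limma. Tapbp, which encodes tapasin, the bridge between TAP and the heavy chain, had 11160.0, 9296, 9685 and 9209 in KO fat, against 13079, 13097 and 8254 in WT fat and a log2 fold change of -0.19. Nlrc5 (chromosome 8, 94434356 to 94527272, plus strand), the co-activator of class I genes, had 1377, 1694, 1837 and 1665 in KO fat, against 1732, 2932 and 2148 in WT fat. KO replicates 1, 2 and 4 lay under all WT values and KO replicate 3 among them, and the log2 fold change was -0.44 with SE 0.19 and adjusted p = 0.0983 in limma. Nlrc5 passed without the WT column numbered 1 (log2 fold change -0.62, adjusted p = 0.0267), and Tap2 passed without the one numbered 4 (log2 fold change -0.45, adjusted p = 0.0473).

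The immunoproteasome subunits Psmb8, Psmb9 and Psmb10 replace Psmb5, Psmb6 and Psmb7 of the constitutive proteasome. Psmb8 had normalised values of 3187, 1924, 1880.3 and 1833 in KO fat, against 1770.4, 2372 and 1309.5 in WT fat. Psmb9 had 1290.4, 695, 646 and 562 in KO fat, against 643, 1189 and 604 in WT fat, and Psmb10 had 2706, 1749, 1498 and 1599 in KO fat, against 1859.9, 2159 and 1249.7 in WT fat. KO replicate 1 was the highest of all fat libraries for each of the 3, groups overlapped, and the log2 fold changes were 0.28, -0.03 and 0.10 (adjusted p of limma 0.417, 0.948 and 0.784). The ratio of Psmb8 to Psmb5 was 2.96 to 3.53 in KO fat against 2.04 to 3.86 in WT fat (exact permutation p = 0.6), that of Psmb9 to Psmb6 was 0.139 to 0.210 in KO fat against 0.188 to 0.381 in WT fat (exact permutation p = 0.114) and that of Psmb10 to Psmb7 was 0.592 to 0.745 in KO fat against 0.374 to 0.663 in WT fat (exact permutation p = 0.171). None of these exchanges was thus separated from the spread between fat libraries, and the log2 differences were 0.17, -0.56 and 0.33. Tap1 and Psmb9, which start from the same promoter region, kept close proportions in WT fat, with ratios of 1.72 to 2.58 in KO fat and 2.27 to 2.30 in WT fat.

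**Figure D3:**
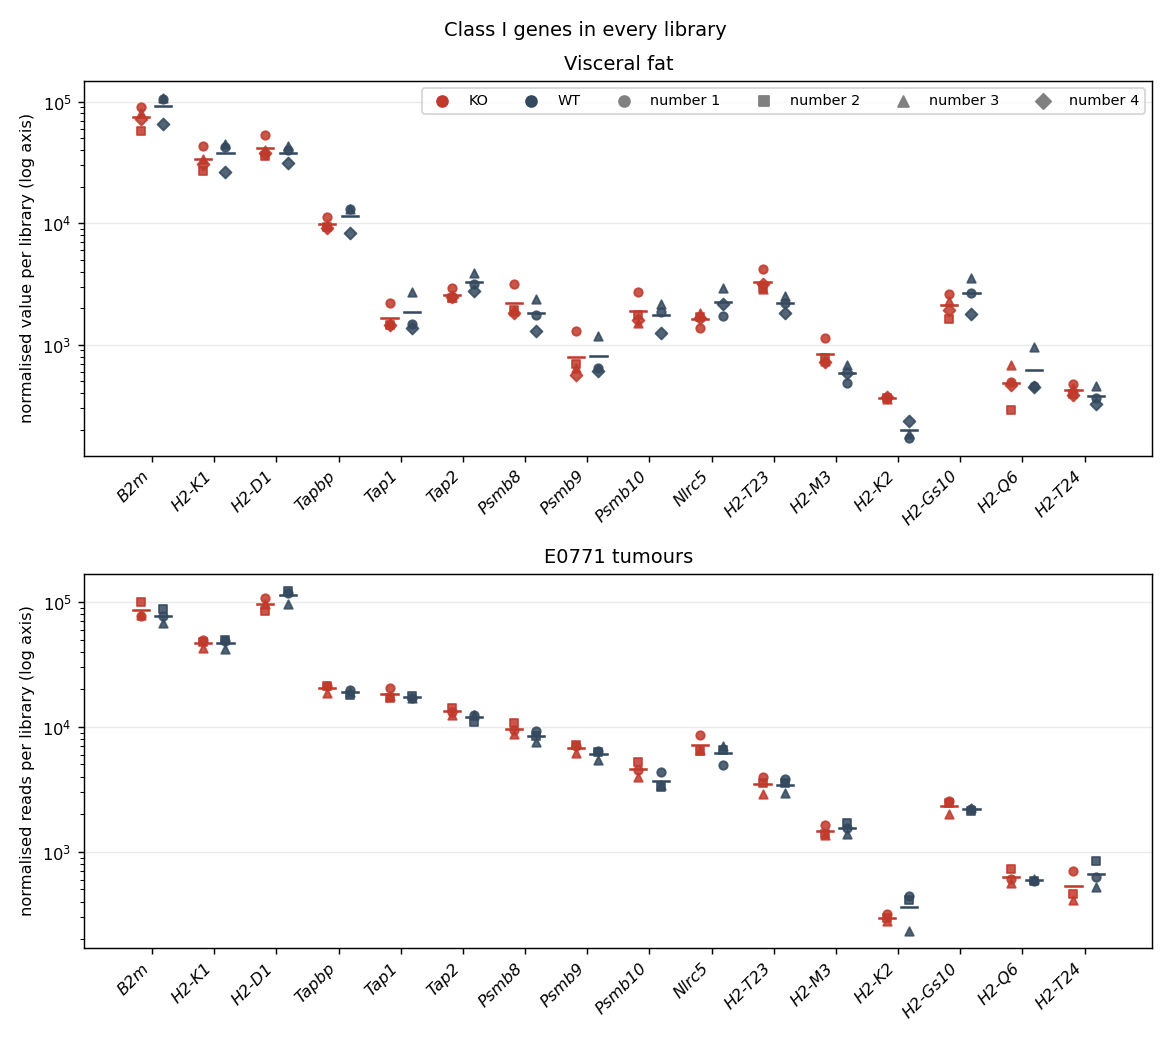
Class I genes and their helpers in every library, as normalised values in fat (upper panel) and normalised reads in tumours (lower panel) on log axes. Points are libraries, with KO left of WT for each gene, and bars are group means. In fat H2-K2, H2-T23 and H2-M3 have every KO library above every WT library, as for 21.6% of all genes tested, while the values of B2m, H2-K1 and H2-D1 overlap.

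Of the 38 class I genes, 22 passed the filter in fat, of which 2 rose and 0 fell, beside 16.8% and 17.4% of all genes tested, so neither share was above that of all genes. Their median log2 fold change was -0.13, with 8 positive and 14 negative values from -0.84 to 0.90. The 8 genes without a read are named above, and the other 8 that did not pass the filter (H2-Bl, H2-M10.1, H2-M10.2, H2-M10.3, H2-M5, H2-Q1, H2-Q2 and H2-T3) stayed under 10 in every fat library. H2-Gs10 and H2-Q6 had log2 fold changes of -0.30 and -0.33, H2-T24 of 0.16, and none passed (adjusted p of limma 0.363, 0.491 and 0.469). H2-Ke2, which GENCODE lists as the prefoldin subunit Pfdn6, and H2-Ke6 had log2 fold changes of 0.07 and -0.11 in fat and -0.04 and -0.03 in tumours, and neither passed in a tissue. The summed class I level was 146473 to 221340.0 in KO fat against 146986 to 233010.0 in WT fat. Beside the macrophage and adipocyte markers given above, 5 of 5 endothelial markers fell, with sums of 15314 to 27232 in KO fat against 35842 to 49829.8 in WT fat, and so did 4 of 4 mesothelial markers, with sums of 1887 to 3823 in KO fat against 3935 to 7342 in WT fat. Of 6 T cell markers Cd8a and Cd8b1 rose (log2 fold changes 1.24 and 0.92). Of 4 fibroblast markers Pdgfra rose (0.81) and all 4 log2 fold changes were positive. None of these lists had a gene at 0 in all libraries, and their part in the class I and class II values was not tested.

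**Figure D4:**
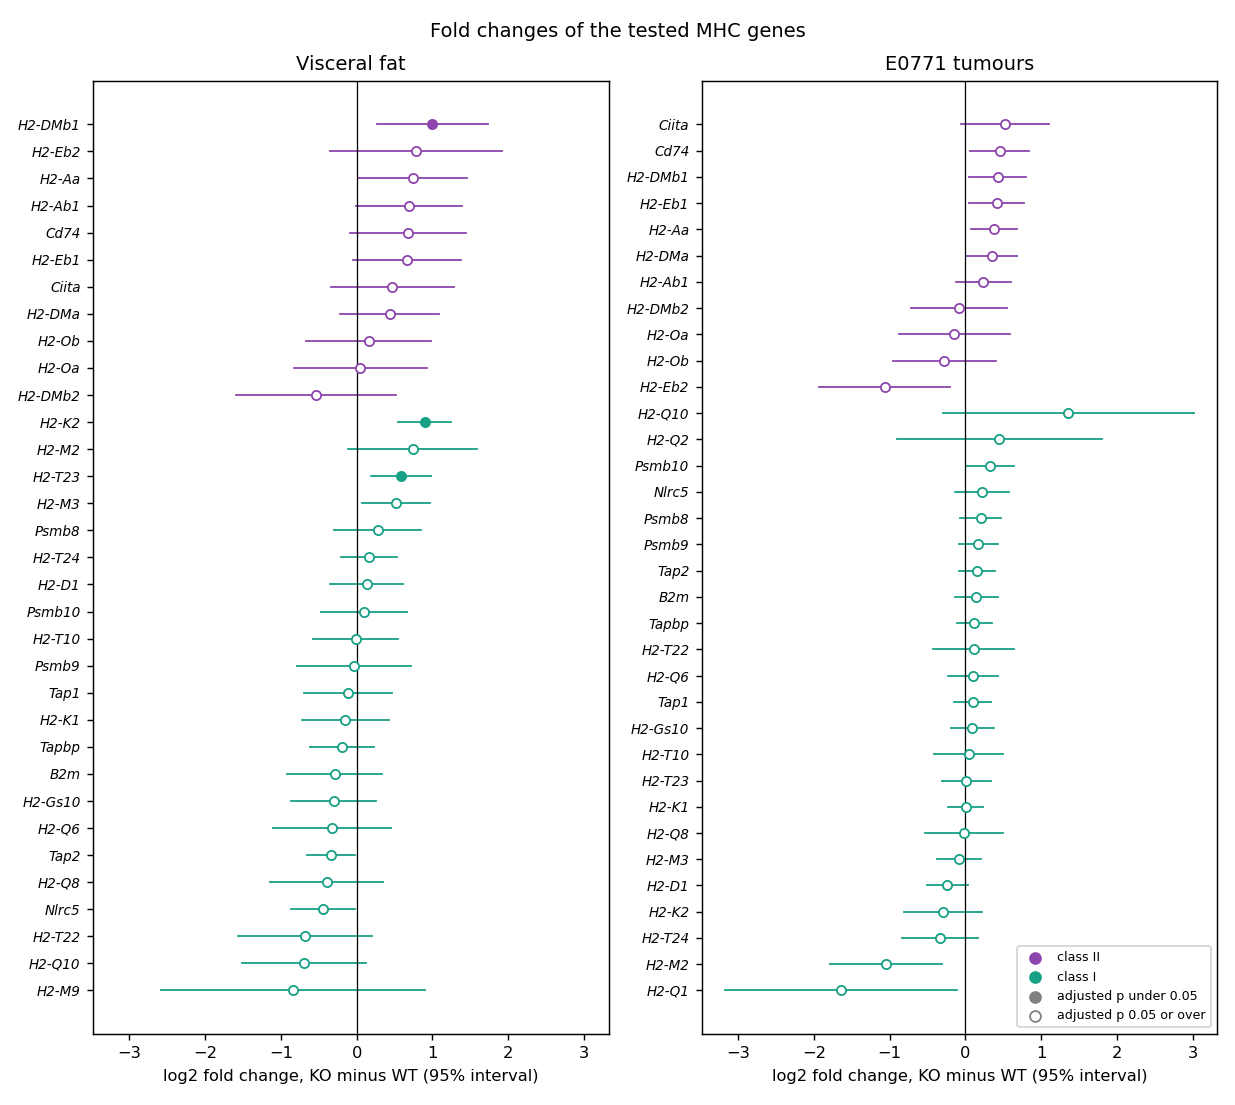
Log2 fold changes, KO minus WT, of all class I and class II genes that passed the filters, with 95% intervals, from limma in fat (left) and edgeR in tumours (right). Class II is in purple above class I in green, and filled points passed an adjusted p of 0.05, which holds for H2-DMb1, H2-K2 and H2-T23 in fat and for no gene in tumours.

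In tumours no gene of the table passed, and 7 of the 11 class II genes tested had a positive log2 fold change. edgeR called 0 of 13109 genes tested in either direction (0% and 0%). Without adjustment, p was under 0.05 for 497 genes with KO higher and 408 with KO lower, and DESeq2 called 41 and 10. Of 11 class II genes tested, 5 were higher and 1 was lower at an unadjusted p under 0.05, and of 23 class I genes 1 was higher and 2 were lower. H2-Aa had normalised reads of 26479, 27615 and 20842 in KO hosts, against 20886, 16126 and 20548 in WT hosts. Cd74 had 56664, 58134 and 39227 in KO hosts, against 39514, 28522 and 44509 in WT hosts. H2-Eb1 had 22065, 22239 and 16839 in KO hosts, against 17556, 11603 and 16735 in WT hosts. In each, KO replicates 1 and 2 lay above all WT tumours, KO replicate 3 lay among them and WT replicate 2 was the lowest. Their log2 fold changes were 0.38, 0.45 and 0.41 (SE 0.14, 0.18 and 0.16; adjusted p of edgeR 0.673, 0.676 and 0.676).

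In H2-Ab1, H2-DMa and H2-DMb1 too, KO replicates 1 and 2 were above all WT tumours and WT replicate 2 was the lowest. H2-Ab1 had 25419.6, 23367 and 19034 in KO hosts, against 22730.3, 14449 and 20321 in WT hosts, with a log2 fold change of 0.24 with SE 0.17 and adjusted p = 0.815 in edgeR. H2-DMa, the alpha chain of H2-DM, had 2712, 3063 and 2227 in KO hosts, against 2249.8, 1776 and 2256 in WT hosts, and a log2 fold change of 0.35 with SE 0.15 and adjusted p = 0.712 in edgeR. H2-DMb1, its beta chain, had 3612, 4329.6 and 2699.8 in KO hosts, against 3058, 2368 and 2503 in WT hosts, and its log2 fold change was 0.42 with SE 0.17 and adjusted p = 0.692 in edgeR. Ciita had 1502, 1059 and 925 in KO hosts, against 682, 552 and 1189 in WT hosts, so that WT replicate 3 exceeded KO replicates 2 and 3, and its log2 fold change was 0.53 with SE 0.26 and adjusted p = 0.755 in edgeR. WT replicate 2 was the lowest tumour for 8 of 11 class II genes. H2-Eb2, singled out after its values were seen, had 35.4, 54.8 and 49.4 in KO hosts, against 113, 129 and 49.3 in WT hosts, and a log2 fold change of -1.07 with SE 0.39 and adjusted p = 0.676 in edgeR. The median over the 11 genes was 0.35, against 0.00 over all genes. Beside these values, 0 of 10 macrophage markers passed in edgeR and 4 were higher at an unadjusted p under 0.05 (C1qb, C1qa, C1qc and Emr1, with log2 fold changes of 0.55, 0.53, 0.52 and 0.47), with summed normalised reads of 71514 to 101626 in KO hosts against 70539 to 80367 in WT hosts, and a median log2 fold change of 0.14. Of 9 dendritic cell markers none passed in edgeR. At an unadjusted p under 0.05, 1 was higher (Xcr1, log2 fold change 1.84) and 2 were lower (Ccr7 and Cd209a, -0.66 and -0.57). Their sums were 1198 to 1482 in KO hosts against 1435 to 1633 in WT hosts, with a median log2 fold change of -0.24. Of 4 B cell markers tested none passed, and their list had sums of 184 to 269 in KO hosts against 279.8 to 323 in WT hosts. The part of these cells in the class II values was not tested.

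None of the main class I chains passed in tumours. B2m had normalised reads of 77340.5, 100128 and 78877 in KO hosts, against 76826, 87444 and 67762 in WT hosts. H2-K1 had 49187, 47615 and 42853 in KO hosts, against 48273, 49378 and 41825 in WT hosts. H2-D1 had 106509, 84324 and 95622 in KO hosts, against 118820.0, 122765 and 96012 in WT hosts. Groups overlapped for B2m and H2-K1, and for H2-D1 KO replicate 1 exceeded WT replicate 3. The 95% interval of the fold for H2-K1 was 0.851 to 1.18, and the log2 fold changes were 0.14 for B2m, 0.00 for H2-K1 and -0.24 for H2-D1 (adjusted p of edgeR 0.855, 1 and 0.757). The ratio of H2-K1 to H2-D1 was 0.448 to 0.565 in KO hosts against 0.402 to 0.436 in WT hosts, so that here the KO values lay above the WT values (exact permutation p = 0.1, the smallest that 20 relabellings allow), as for 9.22% of all genes over H2-D1. In fat the same ratio had KO below WT, and the difference between tissues was not tested for ratios. H2-T23 and H2-K2, which rose in KO fat, had log2 fold changes of 0.01 and -0.30 in tumours (adjusted p of edgeR 0.993 and 0.838).

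None of the peptide-supply genes passed in tumours. Tap2 had normalised reads of 13168, 14171 and 12523 in KO hosts, against 12474, 11021 and 12425 in WT hosts, with every KO tumour above every WT tumour, as for 5.68% of all genes tested, and a log2 fold change of 0.15 with SE 0.11 and adjusted p = 0.823 in edgeR. Tap1, Tapbp and Nlrc5 had log2 fold changes of 0.09, 0.11 and 0.22, and all 3 overlapped between hosts. Tap1 had 16882 to 20619 in KO hosts against 16928 to 17597 in WT hosts. Tapbp had 18726 to 21364 in KO hosts against 17995 to 19854 in WT hosts, and Nlrc5 had 6369 to 8661 in KO hosts against 4923 to 7051 in WT hosts. Psmb10 had 4550.4, 5261 and 3994 in KO hosts, against 4333, 3301 and 3409.9 in WT hosts and a log2 fold change of 0.32 with SE 0.14 and adjusted p = 0.722 in edgeR, the largest of the 3 immunoproteasome subunits. Psmb8 had 8776 to 10739.8 in KO hosts against 7518 to 9314 in WT hosts, with a log2 fold change of 0.20, and Psmb9 had 6156 to 7193 in KO hosts against 5433 to 6389 in WT hosts, with 0.17. The ratio of Psmb8 to Psmb5 was 6.34 to 7.99 in KO hosts against 4.90 to 5.82 in WT hosts, with all KO tumours above all WT tumours (exact permutation p = 0.1; adjusted p over 17 ratios 0.729), as for 9.99% of all genes over Psmb5. Psmb5 itself had 1344 to 1385 in KO hosts against 1292 to 1899 in WT hosts. Its log2 fold change was -0.24 with SE 0.15 and adjusted p = 0.796 in edgeR, so the ratio reflects both genes. The ratios of Psmb9 to Psmb6 and of Psmb10 to Psmb7 overlapped, with exact permutation p = 0.5 and 0.2. H2-M2 and H2-Q1, singled out after their values were seen, had every KO tumour below every WT tumour, as for 4.93% of all genes. H2-M2 had 137, 80.3 and 53.9 in KO hosts, against 145, 245 and 176 in WT hosts (adjusted p of edgeR 0.627), and H2-Q1 was near the floor of detection with 2.53, 2.55 and 8.98 in KO hosts, against 13.8, 20.05 and 10.2 in WT hosts.

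**Figure D5:**
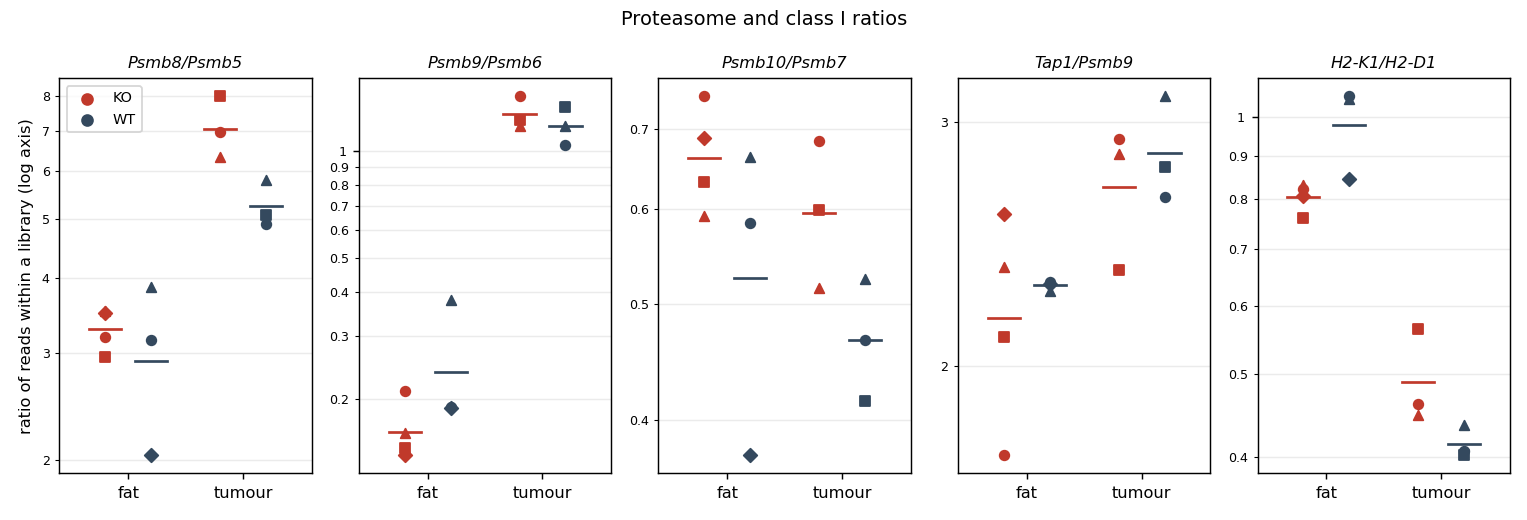
Ratios of immunoproteasome to constitutive proteasome subunits, of Tap1 to Psmb9 and of H2-K1 to H2-D1 within each library, on log axes, for fat and tumours, with KO left of WT. Points are libraries and bars are geometric means. The ratio of Psmb8 to Psmb5 is 6.34 to 7.99 in KO hosts against 4.90 to 5.82 in WT hosts in tumours and overlaps in fat, and the ratio of H2-K1 to H2-D1 has KO below WT in fat and above WT in tumours.

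Genes around these pathways set the scale for the members. Of 16 genes that help class I, taken from a list that includes chaperones, constitutive proteasome subunits, regulators and class I-like molecules, 5 rose and 2 fell in fat, where 16.8% of all genes tested rose and 17.4% fell. Irf2, a regulator of class I promoters, averaged 2590.3 ± 238 in KO fat against 1717 ± 316 in WT fat (SD, n = 4 and 3; log2 fold change 0.60 with SE 0.14 and adjusted p = 0.0131 in limma), and Psmb6 rose too, by 0.53 with SE 0.16 and adjusted p = 0.0331 in limma on that scale. The other 3, named after their values were seen, were chaperones that fold glycoproteins and help load class I: Calr (calreticulin), Pdia3 and Canx (calnexin), with log2 fold changes of 0.71, 0.66 and 0.51. Tapbpl, a relative of tapasin that edits peptides, fell to a mean of 718 ± 63.7 in KO fat, against 1073 ± 73.3 in WT fat (SD, n = 4 and 3; log2 fold change -0.58 with SE 0.12 and adjusted p = 0.00691 in limma). Of 15 genes that help class II, 8 rose and 0 fell, beside the same 16.8% and 17.4% of all genes, with a median log2 fold change of 0.99. Those of smallest p were Nfya, a subunit of the factor that binds the Y box (1.22 with SE 0.18 and adjusted p = 0.00203 in limma), and Lgmn, Ifi30 and Ctss, which encode lysosomal enzymes: legumain, a thiol reductase and cathepsin S, which cuts the invariant chain. Their log2 fold changes were 2.30 with SE 0.37 and adjusted p = 0.00288, 1.86 with SE 0.34 and adjusted p = 0.00451 and 2.44 with SE 0.47 and adjusted p = 0.00578 in limma. The lysosomal enzymes are also abundant in macrophages, whose markers are given above. The part of macrophages in the values of these enzymes was not tested. The factors that bind the X box, Rfx5, Rfxap and Rfxank, named for that role after their values were seen, had log2 fold changes of 0.19, -0.13 and -0.06 and did not pass.

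Of 11 interferon gamma axis genes tested in fat, 1 rose and 0 fell, beside 16.8% and 17.4% of all genes, with a median log2 fold change of -0.22. Ifngr2, a receptor chain, rose by 0.92 with SE 0.25 and adjusted p = 0.0241 on the log2 scale, while Gbp2, a GTPase induced by interferon gamma, had -0.85 with SE 0.33 and adjusted p = 0.0796 in limma. In tumours 0 of 12 passed in edgeR, with 6 higher at an unadjusted p under 0.05, and the median was 0.29. Those of smallest p were Iigp1, an interferon-inducible GTPase, and Cxcl9, a chemokine that draws T cells, with log2 fold changes of 1.09 with SE 0.17 and adjusted p = 0.204 and 0.98 with SE 0.15 and adjusted p = 0.204 in edgeR, then Gbp2 and Irf1. Normalised reads of Gbp2 were 13535 ± 2310.5 in KO hosts against 7898 ± 682 in WT hosts and those of Irf1, a transcription factor of interferon gamma, 8851 ± 1534 in KO hosts against 5947 ± 639 in WT hosts (SD, n = 3 each; log2 fold changes 0.78 with SE 0.14 and adjusted p = 0.204 and 0.57 with SE 0.14 and adjusted p = 0.446 in edgeR). Of 6 T cell markers in tumours none passed in edgeR and 5 were higher at an unadjusted p under 0.05, with sums of 4054 to 9097 in KO hosts against 2992 to 4402 in WT hosts. Their part in the class I and class II values of the tumours was not tested. Among the helpers of class I and of class II none of 16 and none of 15 passed in tumours, with 3 and 0 higher at an unadjusted p under 0.05 in edgeR.

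The effect in fat minus the effect in tumours was set against exact permutations of the host labels within each tissue (700 relabellings) for the 12529 genes tested in both. Relabelling assumes no host effect in either tissue. A small p can therefore come from an effect in a single tissue, and a large p does not show equal effects. None passed an adjusted p of 0.05, and the smallest adjusted p over all genes was 0.11. At an unadjusted p under 0.05 there were 6 of 34 members and 24.3% of all genes, so differences were not more frequent among the members. The 6, named after their values were seen, were H2-M2, H2-K2, H2-M3 and H2-Eb2, with the higher effect in fat, and Tap2 and Nlrc5, with the lower effect in fat. For H2-K2 the effect on the log2 scale was 0.90 in fat and -0.24 in tumours (difference 1.14, exact permutation p = 0.0157, adjusted p = 0.143). For Tap2 it was -0.34 in fat and 0.15 in tumours (difference -0.49, exact permutation p = 0.01, adjusted p = 0.127). For the classical chains H2-Aa and H2-K1 the difference was within the spread of the relabellings, with 0.36 for H2-Aa (exact permutation p = 0.536) and -0.15 for H2-K1 (exact permutation p = 0.59).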

How the data were processed

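RNA was extracted with Trizol and sequenced from TruSeq stranded mRNA libraries, per the labels. For the tumours the authors deposited read counts per gene symbol without normalisation. For fat the authors deposited a normalised signal per gene, which is a read count divided by 1 size factor per library: 100% of values above 0 in each library were whole multiples of its step of 0.860 to 1.10, within 0.001 reads. CASAVA, TopHat, DESeq2 and build mm10 are named in the submitters' processing notes, without versions or roles; the counter, annotation and strand setting are not given in the sources used here, so overlapping genes may share reads. WT fat columns are numbered 1, 3 and 4 where the labels number the replicates 1, 2 and 3, so they were assigned to the group only. Summary lines of the tumour table (66.7% to 72.2% of entries) stayed out.

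For tumours the quasi-likelihood test of edgeR 4.0.16 (R 4.3.3) was used after filterByExpr and TMM. For fat, limma-trend (version 3.58.1) was fitted to log2(value + 1), keeping genes at 10 or more in 3 or more libraries. That scale understates changes of low genes. Tests were two-sided with the Benjamini-Hochberg method over all genes tested and a threshold of 0.05. Alternatives were DESeq2 1.42.0, other filters, pseudocounts and scalings, edgeR on reads recovered from the fat signal, and leaving out each library. On simulated counts (14636 genes for the fat comparison, 13123 for the tumour comparison) limma recovered 64% of 2-fold and 99% of 4-fold changes and edgeR 97% and 100%, with 2.40% of limma's and 9.63% of edgeR's calls false. Changes were planted in well-expressed genes only, and the share recovered depends on how many are planted. It therefore does not show which changes the real fits would miss. In the real tumours Iigp1, at 2.13-fold, was not called (adjusted p = 0.204 in edgeR). Replicate libraries differed beyond sampling noise (chi-square per degree of freedom of 23.1 or more). Members and gene lists were chosen with earlier results of these data known. Values per library are given for members with a mean of 500 or more in a tissue, those past the threshold, Ciita and Nlrc5, and up to 4 genes of smallest p are named per list; exceptions are stated. Sequences are RefSeq's for GRCm38.p6, the assembly behind mm10, and were found by symbol for 38 of 52 members, and coordinates and exon lengths are GENCODE M21's, matched for 49.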

Additional observations from a re-analysis of the deposited data

Results flagged for a closer look

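In KO fat, replicate 1 stood apart from the other 3 KO libraries in 5 of the 25 members examined, by Dixon's test for 4 values, in which chance marks about 1 group in 20. The members share libraries, so the flags are not independent of one another and their count cannot be set against that rate. The share of all genes flagged in this library was not taken, so the count says nothing particular to the members. The value of H2-Eb1 was 38803 in KO replicate 1, and the next KO library was at 25026. For H2-M3 it was 1138, with the next at 779. Psmb8, with 3187 against 1924, and its neighbours on the chromosome Tap1, with 2224 against 1522, and Tap2, with 2916 against 2496, showed the same library on top. Without KO replicate 1 the log2 fold changes, KO minus WT, were 0.49 for H2-Eb1 (0.66 with it), 0.37 for H2-M3 (0.52), 0.09 for Psmb8 (0.28), -0.26 for Tap1 (-0.11) and -0.40 for Tap2 (-0.34). None of the 5 passed with or without it.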

How the results depend on the processing

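In fat the number of class II genes that rose was 1, against 0 with edgeR on the recovered reads and 0 to 2 when a library was left out. Among these fits H2-DMb1 passed only without the WT column numbered 1, where H2-Ab1 passed too. For class I the number that rose was 1 to 2 and the number that fell 0 to 1 when a library was left out. Over all genes in fat these fits called 1575 to 2691 higher and 1490 to 2567 lower, with the lowest counts without the WT column numbered 3. In tumours DESeq2 called 41 genes higher and 10 lower, and the fit with no filter 21 and 1, against 0 and 0; leaving out a library gave 0 to 10 higher and 0 to 11 lower. Without KO replicate 3 there were 9 higher, and without WT replicate 3 there were 10 higher and 11 lower. None of the 25 members refitted under every setting passed in tumours. H2-Eb2, H2-M2 and H2-Q1 were not among them.

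Some signs turned. In fat, over fits that left out a library, the log2 ranges were H2-Ke2 -0.048 to 0.15, Psmb10 -0.13 to 0.27, Psmb9 -0.29 to 0.28, H2-Q6 -0.52 to 0.036, Tap1 -0.29 to 0.19, H2-D1 -0.0084 to 0.23, H2-Ke6 -0.41 to 0.23. In tumours they were H2-K1 -0.069 to 0.058, H2-Ke2 -0.15 to 0.14, H2-Ke6 -0.16 to 0.055, H2-T23 -0.11 to 0.13, Tap1 -0.0052 to 0.15, H2-Q6 -0.014 to 0.18, and H2-K1 was -0.00333 with DESeq2 and -0.00384 with no filter. The log2 difference of the ratio of Psmb8 to Psmb5 in fat ran from -0.086 (without the WT column numbered 4) to 0.38. In tumours, for ratios that were refitted in this way after the data were seen, H2-DMb1 to H2-DMa ran from -0.032 to 0.12 and H2-Aa to Emr1 from -0.25 to 0.073. The causes were not tested. Of the alternative values for single genes and for ratios refitted after the data were seen, 635 were scored as unchanged. Of those for counts, medians and proteasome ratios, 209 were. Unchanged means the same direction and side of the threshold for a gene and the same direction alone for a ratio. For a count or median it means a small shift. In the first set 30 reversed, 10 lost and 3 gained their call, and in the second 22 moved and 1 reversed.

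The numbers shared by tumour labels did not pair the libraries: the deviations of same-numbered libraries correlated at -0.218, 0.0118 and -0.220, and the fit with replicate number as a block called 0 genes higher and 0 lower. No paired analysis was possible in fat because the WT columns do not carry the numbers of the labels.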

Other observations

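Beside the classical MHC, the genes of class I-like molecules were not alike in fat. Cd1d1, which encodes CD1d, a presenter of lipids to natural killer T cells that fat cells carry, had normalised values of 3763, 2421, 3866 and 3020.2 in KO fat, against 11538, 14285 and 14165 in WT fat. All KO values lay below all WT values, as for 22.1% of all genes tested. Cd1d1 fell by 2.05 on the log2 scale (SE 0.18, adjusted p of limma 0.000759), a larger change than that of any MHC gene given here by value in fat. In the same libraries 6 of 6 adipocyte markers fell, beside 17.4% of all genes tested. Their median log2 fold change was -1.61, and their part in the Cd1d1 values was not tested. Mr1, which presents vitamin B metabolites, had 777, 902, 959.7 and 944 in KO fat, against 1215, 1006 and 1427 in WT fat. All its KO values lay below all WT values, again as for 22.1% of all genes tested. Its log2 fold change was -0.43 with SE 0.15 and adjusted p = 0.0513 in limma. Fcgrt, the neonatal Fc receptor, had 7783 to 11198 in KO fat against 7586 to 10937 in WT fat and a log2 fold change of -0.03 with SE 0.19 and adjusted p = 0.92 in limma. In tumours the 3 genes had log2 fold changes of 0.27, -0.03 and -0.21, with Cd1d1 at means of only 46.5 normalised reads in KO hosts and 38.5 in WT hosts. Mr1 and Fcgrt were named here after their values were seen.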
